A study of Mus musculus with 6 samples.

Results

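Messages of the canonical Wnt pathway were followed in mouse embryonic stem cells in which pyruvate kinase M had been knocked down, and in the RNA crosslinked to tagged PKM2. The group of 10 genes was Notum, Axin2, Lef1, Ctnnb1, Apc, Lrp5, Lrp6, Fzd2, Fzd5 and Fzd7, and 7 of them had a row among the 6532 genes analysed. The rows were those of the UCSC transcripts uc007mtz.2 (Notum), uc009scu.2 (Ctnnb1), uc008eke.2 (Apc), uc008fwq.2 (Lrp5), uc009ekl.2 (Lrp6), uc007bgy.1 (Fzd5) and uc011wlq.1 (Fzd7). Axin2, Lef1 and Fzd2 were not analysed here. The group was chosen from measured values, because Notum was among the lowest messages of the knockdown library. The values of Notum in that comparison are therefore a description and support nothing, and the other members entered as components of the same pathway.

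All cells were E14, an established mouse embryonic stem cell line, kept on gelatin in serum medium with LIF. The wild-type cells were transfected with non-targeting siRNAs in the control group (siCtrl) and with siRNAs against PKM1 and PKM2 in the knockdown group (siPKM), both at 20 nM for 36 h, with passaging 16 h before harvest and cycloheximide at 100 µg per ml for 2 min. Each of these groups had 1 RNA library, made after removal of rRNA, and 1 ribosome footprint library (RPF, for ribosome-protected fragments), so no comparison of siPKM with siCtrl has a replicate check or a p-value. The third group, labelled PKM2_FLAG_HA, expressed PKM2 with FLAG and HA tags, received a UV dose of 0.35 J per cm2 and gave 2 CLIP libraries, in which the stops of reverse transcription next to crosslinked bases were counted.

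In canonical Wnt signalling, secreted lipid-modified Wnt proteins bind a Frizzled receptor together with the co-receptor Lrp5 or Lrp6. Without a Wnt signal, a complex that holds Axin, Apc and the kinases Gsk3 and casein kinase 1 marks β-catenin (Ctnnb1) for destruction; with the signal β-catenin enters the nucleus and acts with Lef1 and the Tcf factors. Notum, a secreted esterase that removes the lipid from Wnt proteins, and Axin2 are both inhibitors of the pathway and targets of it. In mouse embryonic stem cells the pathway is known for sustaining self-renewal.

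Reads in coding sequences (CDS) numbered 12111993 (siCtrl) and 10349212 (siPKM) for RNA and 15175242 (siCtrl) and 12545485 (siPKM) for footprints, and the CLIP replicates held 677534 and 670508 stops. Pkm had the lowest siPKM to siCtrl ratio of all genes, with 0.502% of CDS reads in siCtrl RNA and 0.158% in siPKM RNA. Of 16 embryonic stem cell markers 15 were among the genes analysed, with a summed level of 5274 CPM (counts per 1000000 CDS reads of a library) in siCtrl RNA and 5238 in siPKM RNA, and their single RNA ratios reached from -0.52 to 1.18 on the log2 scale. The 8 mesendoderm markers were not analysed here. The 3 neural markers with a row summed to 177 CPM in siCtrl RNA and 125 in siPKM RNA, 3 trophoblast markers (RNA ratios from -0.60 to 0.59) to 77.5 and 83.6, the fibroblast marker Vim to 229 and 304, and the primitive endoderm marker Cubn to 15.1 and 16.4, and their part in the results below was not tested. In such bulk libraries, fewer cells of a type and less RNA per cell cannot be told apart.

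Notum, the extracellular inhibitor, was the member with the lowest ratio in RNA and in footprints. It had 756 CDS reads (62.4 CPM) in siCtrl RNA and 314 (30.3 CPM) in siPKM RNA. In footprints it had 607 reads (40.0 CPM) in siCtrl and 306 (24.4 CPM) in siPKM. The siPKM library was the lower one in both pairs. All ratios here are log2 values of siPKM over siCtrl, relative to the median gene, with 95% intervals that cover counting error only. Ratios of UTR reads use the CDS scaling and are relative to the CDS of the median gene. The RNA ratio of Notum was -1.09 (-1.28 to -0.90), which left 0.471 times the control level, and its RPF ratio was -0.73 (-0.94 to -0.53), or 0.601 times. In RNA it ranked the fifth lowest of all genes, between Hsd17b14 at -1.10 and Dnmt3b at -1.08, and in RPF it ranked 44 from the lowest. Reads of the Notum 3' UTR, counted apart from the CDS in the same libraries, were 197 in siCtrl RNA and 89 in siPKM RNA, with a ratio of -0.96 (-1.34 to -0.60). A change in translation efficiency (TE) is the RPF ratio minus the RNA ratio, and for Notum it was 0.35 (0.08 to 0.62). This TE value holds the RNA ratio that chose Notum, and a low RNA ratio raises it. It is therefore a description as well.

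**Figure D1:**
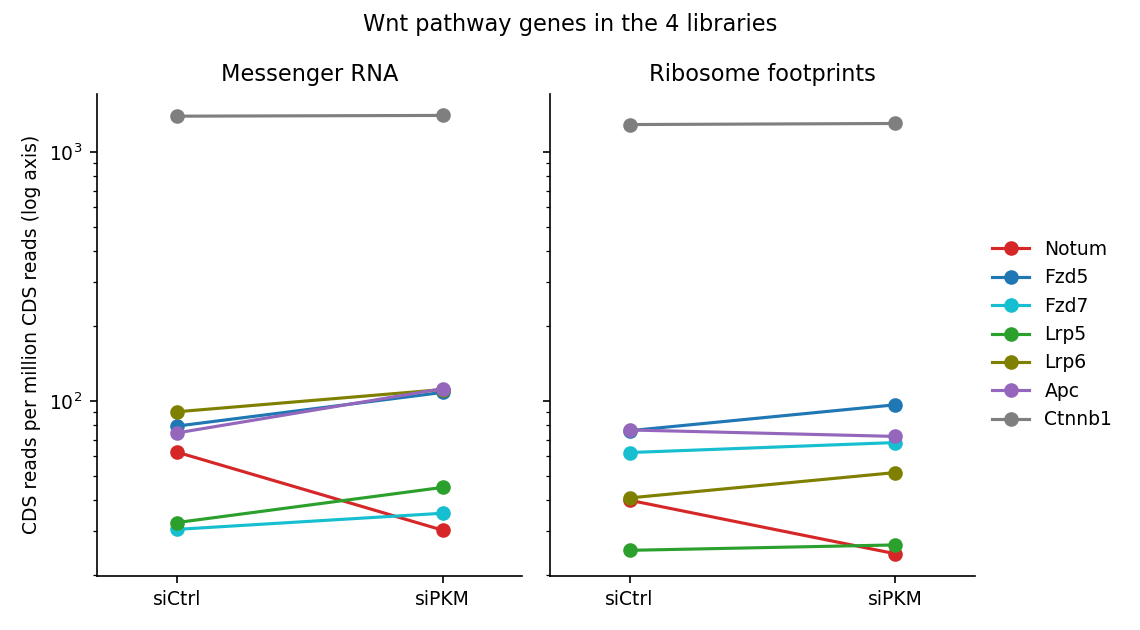
CDS level in CPM (log axis) of the 7 Wnt genes in the siCtrl and siPKM libraries of messenger RNA and of ribosome footprints, 1 library per point. Lines join a gene's pair of libraries; levels carry no length correction, so genes are to be compared within their own line, where Notum goes from 62.4 to 30.3 in RNA and from 40.0 to 24.4 in footprints.

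Among the receptors, Fzd5 and Lrp6 were modestly higher in both kinds of siPKM library. In the CDS, Fzd7 was within counting error and none was 1.5-fold apart. Fzd5, a seven-pass receptor for Wnt proteins, had 79.3 CPM in siCtrl RNA and 108 in siPKM RNA, and 76.0 and 96.6 CPM in the footprints. Its ratios were 0.40 (0.28 to 0.53) in RNA and 0.32 (0.21 to 0.44) in RPF. Fzd7, a related receptor known from pluripotent cells, had 30.5 and 35.5 CPM in RNA and 62.1 and 68.2 CPM in footprints. Its CDS ratios of 0.17 (-0.04 to 0.38) and 0.11 (-0.02 to 0.25) were within counting error. RNA reads of the Fzd7 5' UTR were higher in siPKM, at 0.49 (0.17 to 0.81). Those of its 3' UTR gave 0.21 (0.02 to 0.39) on the CDS scaling. Over all genes the 3' UTR held 28.7% of RNA reads in siCtrl and 29.2% in siPKM. The 3' UTR value of Fzd7 is therefore not read as a difference beyond counting error. Fzd7 footprints in the 5' UTR, at 0.05 (-0.15 to 0.25), were within counting error. For both Frizzled genes the TE change, -0.08 (-0.25 to 0.09) and -0.06 (-0.31 to 0.19), was within counting error.

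The co-receptors were both higher in siPKM RNA, while their footprints differed in size of change, with intervals that overlap. Lrp6 had 90.6 CPM in siCtrl RNA and 111 in siPKM RNA, and 40.9 and 51.7 CPM in footprints, with ratios of 0.25 (0.13 to 0.37) and 0.32 (0.16 to 0.48). Lrp5 had 32.5 and 45.0 CPM in RNA but 25.2 and 26.5 CPM in footprints, with ratios of 0.42 (0.23 to 0.62) and 0.05 (-0.17 to 0.27). For Lrp6 the siPKM library was thus the higher one in both pairs, and for Lrp5 the footprint pair was within counting error. The TE change of Lrp5 was -0.37 (-0.66 to -0.09), above 4.33% of genes, and that of Lrp6 was 0.06 (-0.13 to 0.26).

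Apc, a scaffold protein of the destruction complex, had the largest TE difference of the 7 genes. It had 902 CDS reads (74.5 CPM) in siCtrl RNA and 1160 (112 CPM) in siPKM RNA. In footprints it had 1162 reads (76.6 CPM) in siCtrl and 905 (72.1 CPM) in siPKM. The RNA ratio was 0.54 (0.42 to 0.67), and the RPF ratio of -0.11 (-0.23 to 0.02) was within counting error. The CDS reads of the message were thus higher in the siPKM library without detectably more footprints. The TE change of -0.65 (-0.83 to -0.48), or 0.636 times, was the 23rd lowest of all genes. Reads of the Apc 3' UTR in the same libraries gave an RNA ratio of 0.66 (0.34 to 0.99), from 137 and 191 reads, near that of the CDS. The 64 and 61 RNA reads of its 5' UTR gave 0.11 (-0.42 to 0.64), an interval that holds both 0 and the CDS value. The RNA ratio lay just under the 1.5-fold line of 0.58, and without centring on the median gene it was 0.59.

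Ctnnb1, the transcriptional effector of the pathway, was by far the most deeply counted member and differed least in the CDS. It had 16851 CDS reads (1391 CPM) in siCtrl RNA and 14500 (1401 CPM) in siPKM RNA, and 19539 (1288 CPM) and 16315 (1301 CPM) in footprints. The ratios were -0.04 (-0.07 to -0.00) in RNA, -0.01 (-0.04 to 0.02) in RPF and 0.03 (-0.02 to 0.07) in TE. The RNA value turned to 0.01 without centring on the median gene. For the CDS, the intervals leave room for a difference of less than 0.1 on the log2 scale in either kind of library. Outside the CDS, RNA reads gave -0.18 (-0.31 to -0.05) in the 5' UTR and -0.09 (-0.14 to -0.04) in the 3' UTR. Footprints in the 5' UTR gave -0.22 (-0.32 to -0.12). On the CDS scaling these values lay below 0 beyond counting error. Over all genes, however, the 5' UTR held 4.43% of RNA reads in siCtrl and 4.22% in siPKM. For footprints its share was 5.41% and 5.15%. The 5' UTR values of Ctnnb1 thus hold a difference of the whole libraries that was not taken out.

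**Figure D2:**
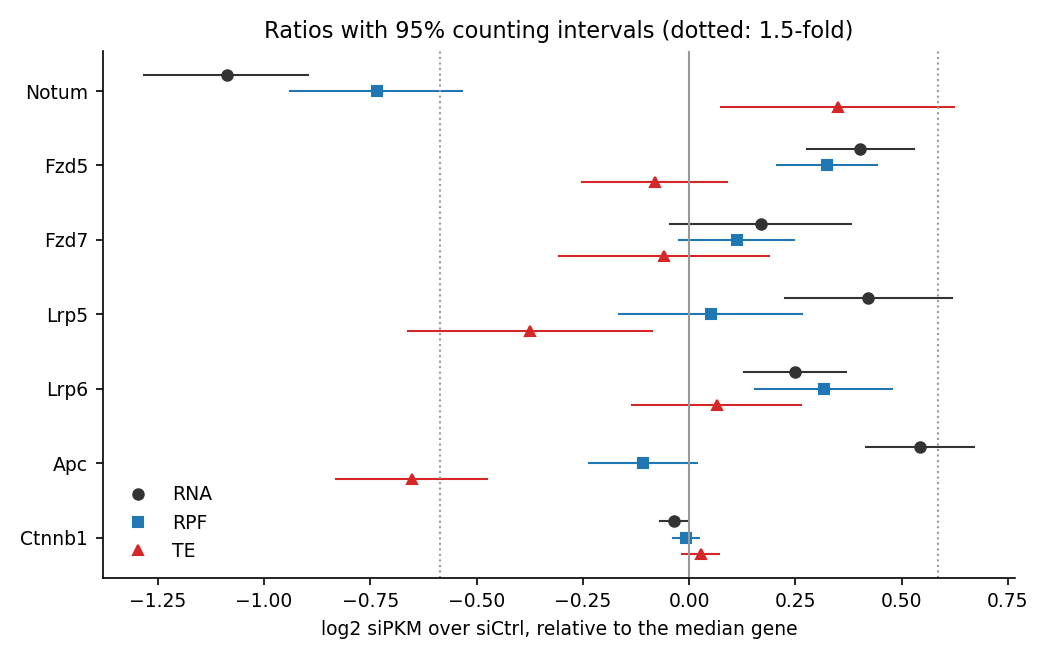
Log2 ratio of siPKM over siCtrl, relative to the median gene, for RNA, footprints (RPF) and translation efficiency (TE) of each Wnt gene, with 95% counting intervals as lines and the 1.5-fold lines dotted. Notum lies left of the line in RNA (-1.09) and RPF (-0.73), Apc lies left of it in TE (-0.65), and Ctnnb1 lies near 0 in all 3.

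Counts of members were read against all 6532 genes. In RNA, 0 of the 7 members were at least 1.5-fold higher in siPKM and 1, Notum, was lower, against 2.88% of all genes higher and 1.24% lower. In RPF the counts were 0 and 1, again Notum, against 2.66% and 1.53%. In TE they were 0 and 1, Apc, against 0.184% and 0.827%. The choice of Notum used the RNA comparison, so nothing is read from its count there. Its RPF count is that of a gene so chosen, and nothing is read from it either. The other 6 members had a median RNA ratio of 0.33, with 5 of the 6 above 0, a median RPF ratio of 0.08 and a median TE change of -0.07, where the median of all genes is 0 by construction.

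A wider list of 129 genes of the pathway had 44 with a row, members included. Of the 37 that are not members, 3 were at least 1.5-fold higher in siPKM RNA and 1 lower, against 2.88% and 1.24% of all genes. In RPF 2 were higher and 1 lower, against 2.66% and 1.53%, and in TE 0 were higher and 1 lower, against 0.184% and 0.827%. Their median ratios were 0.14 in RNA, 0.02 in RPF and -0.12 in TE, with 27 of the 37 below 0 in TE. The genes higher in RNA were Sfrp1, Gpc4 and Csnk1e, and the one lower was Mycn.

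Among the extracellular components, Sfrp1 and Gpc4 had higher siPKM values in RNA and in RPF. Sfrp1, a secreted Frizzled-related protein that binds Wnt proteins outside the cell, had 201 and 403 reads (16.6 and 38.9 CPM) in siCtrl and siPKM RNA and 389 and 726 reads (25.6 and 57.9 CPM) in footprints. Its ratios of 1.18 (0.94 to 1.44) and 1.15 (0.97 to 1.33) lay above 99.9% of genes in both kinds of library. Gpc4, a glypican of the cell surface, had 196 and 348 reads in RNA and 1712 and 2293 in footprints, with ratios of 1.01 (0.75 to 1.27) and 0.67 (0.58 to 0.77). Sfrp1 and Notum, both secreted Wnt inhibitors, thus had ratios of opposite sign in RNA and in RPF, where the RNA value of Notum is the one that chose it. Porcn, the enzyme that adds the lipid to Wnt proteins, stood at 0.43 in RNA and 0.02 in RPF, with a TE change of -0.41 (-0.71 to -0.12).

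The receptor group, 7 genes with a row, reached from Ptk7, a pseudokinase co-receptor, at -0.32 (-0.40 to -0.24) to Lrp5 at 0.42 in RNA. In TE it reached from Lrp5 at -0.37 to Mesdc2 (Mesd), the ER chaperone of Lrp5 and Lrp6, at 0.29 (0.10 to 0.48). Among 18 transducers and destruction complex genes, Csnk1e, a casein kinase 1 isoform, was the highest in RNA at 0.79 (0.62 to 0.96), with 0.49 in RPF, and its relative Csnk1d the lowest at -0.20 (-0.36 to -0.05). In TE the lowest of that group was Macf1, a giant cytoskeletal linker also placed in Wnt signalling, at -0.72 (-0.84 to -0.61), next to Apc, and the highest was Rnf146, a ubiquitin ligase for Axin, at 0.41 (0.09 to 0.72). Axin1, the scaffold that shares its role with Axin2, stood at -0.02 in RNA and -0.18 in RPF.

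The 11 nuclear factors lay within 1.5-fold in RNA, RPF and TE, and 10 of the 11 were below 0 in TE. Their RNA ratios reached from -0.08 for the corepressor Tle4 to 0.44 for the acetyltransferase Crebbp, and their TE changes from -0.53 (-0.78 to -0.28) for the corepressor Ctbp1 to 0.11 for Tle4. Of 24 listed target genes 4 had a row, Notum among them, and of the other 3, Mycn and Ccnd1 were lower in siPKM beyond counting error. Mycn, a Myc family transcription factor, had 1953 and 1077 reads in RNA and 5405 and 2502 in footprints, with ratios of -0.68 (-0.79 to -0.57) and -0.86 (-0.93 to -0.79). Ccnd1, cyclin D1, stood at -0.40 (-0.51 to -0.29) and -0.36, and Myc, at -0.04 (-0.32 to 0.24) and -0.00 (-0.09 to 0.09), was within counting error.

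**Figure D3:**
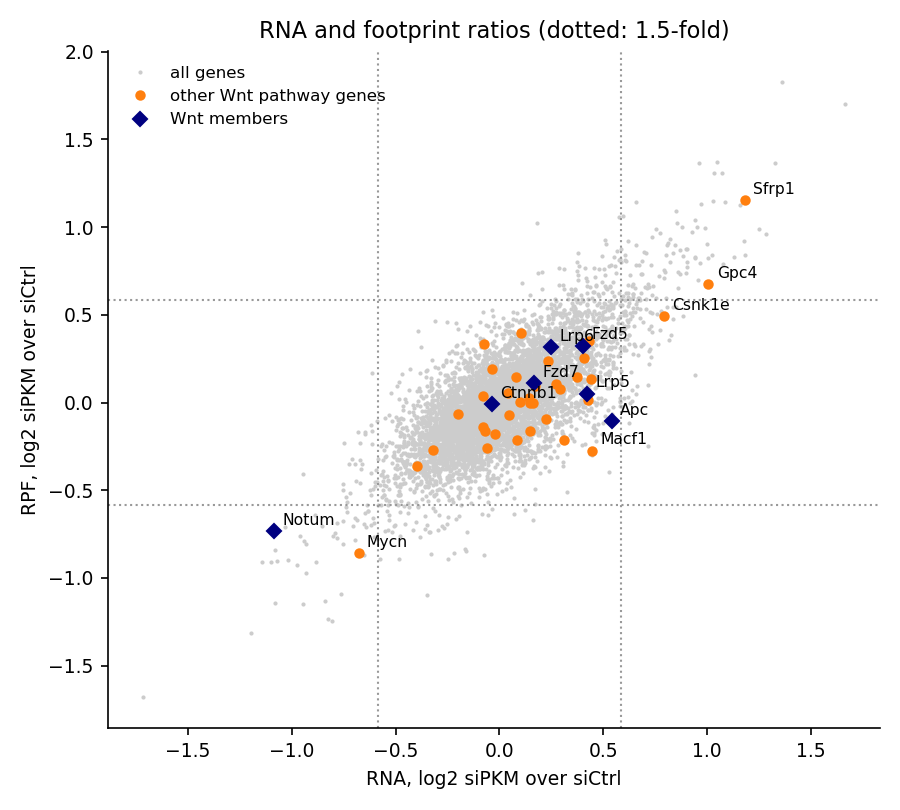
RNA ratio (x axis) against footprint ratio (y axis), both log2 siPKM over siCtrl, of all 6532 genes (grey), the other Wnt pathway genes (orange) and the 7 members (blue), with the 1.5-fold lines dotted. Notum (-1.09 and -0.73) and Mycn (-0.68 and -0.86) lie at the lower left, Sfrp1 (1.18 and 1.15) and Gpc4 (1.01 and 0.67) at the upper right.

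The genes whose pair of RNA and RPF ratios was nearest to that of Notum, by Euclidean distance over the 4 libraries, were Echdc2, Hist3h2a (H2aw), Cltb, Ctnnal1 and Endog. Echdc2, an enoyl-CoA hydratase family protein, was at a distance of 0.06, with -1.03 in RNA and -0.71 in RPF. The distances of the other 4 were 0.11 for the histone Hist3h2a, 0.13 for the clathrin light chain Cltb, 0.16 for the α-catulin Ctnnal1 and 0.17 for the mitochondrial nuclease Endog. None of the 5 is on the pathway list.

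The level of TE in the control cells, footprints over RNA on the same CDS relative to the median gene, set Fzd7 and Lrp6 apart from the other members. Fzd7 stood at 1.20 (1.03 to 1.38), above 93.1% of genes, and Lrp6 at -0.97 (-1.12 to -0.83), above 9.17%. Between them were Apc at 0.22 (0.09 to 0.34), Fzd5 at 0.11 (-0.01 to 0.24) and Ctnnb1 at 0.06 (0.03 to 0.09), whose intervals overlap. Below these were Lrp5 at -0.19 (-0.40 to 0.01) and Notum at -0.47 (-0.62 to -0.31), with intervals that also overlap each other. In the siPKM cells Fzd7 was again the highest at 1.12 (0.94 to 1.30) and Lrp6 the lowest at -0.93 (-1.07 to -0.79). The order in between differed, with Ctnnb1 at 0.07, Fzd5 at 0.01, Notum at -0.14 (-0.37 to 0.09), Apc at -0.46 (-0.59 to -0.33) and Lrp5 at -0.59 (-0.80 to -0.39). The RNA reads that chose Notum are the denominators of both its levels. That choice lowers its siCtrl level and raises its siPKM level, so its places in the order are a description only.

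Both Frizzled genes carried a large part of their footprints in the 5' UTR. Of the Fzd5 footprints in siCtrl 33.3% (31.2 to 35.5, 617 of 1853 reads; exact Clopper-Pearson interval, as for all shares) lay there, and of the Fzd7 footprints 31.1% (28.7 to 33.5, 450 of 1448). These shares were above 98.0% and 97.3% of genes, whose median was 3.85%. In siPKM they were 30.5% (28.4 to 32.6) for Fzd5 and 30.2% (27.7 to 32.8) for Fzd7, with intervals that overlap those of siCtrl. The RNA reads of both genes also lay often in the 5' UTR, at 9.07% for Fzd5 and 14.8% for Fzd7 in siCtrl against a median of 2.67%.

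Set against the RNA reads of the same regions, the excess was smaller for Fzd5 and within counting error for Fzd7. The ratio of 5' UTR to CDS footprints over the ratio of 5' UTR to CDS RNA reads was 1.38 in siCtrl for Fzd5, a log2 value of 0.47 (0.25 to 0.69), and 1.18 for Fzd7, a log2 value of 0.23 (-0.08 to 0.55). These were above 65.9% and 57.3% of the 4590 genes with at least 10 RNA reads in the 5' UTR of each library. In siPKM the log2 values were 0.56 (0.33 to 0.78) for Fzd5 and -0.15 (-0.46 to 0.16) for Fzd7. For Ctnnb1 the log2 value in siCtrl was 0.51 (0.40 to 0.62), for Lrp6 0.02 (-0.65 to 0.69) and for Apc -0.56 (-1.09 to -0.03). Lrp5 had 53 footprints in the 5' UTR in siCtrl, 11.9% (9.07 to 15.3), but 5 RNA reads there, and Notum had 12 footprints, 1.91%, and 4 RNA reads, so that no such ratio was taken for them.

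**Figure D4:**
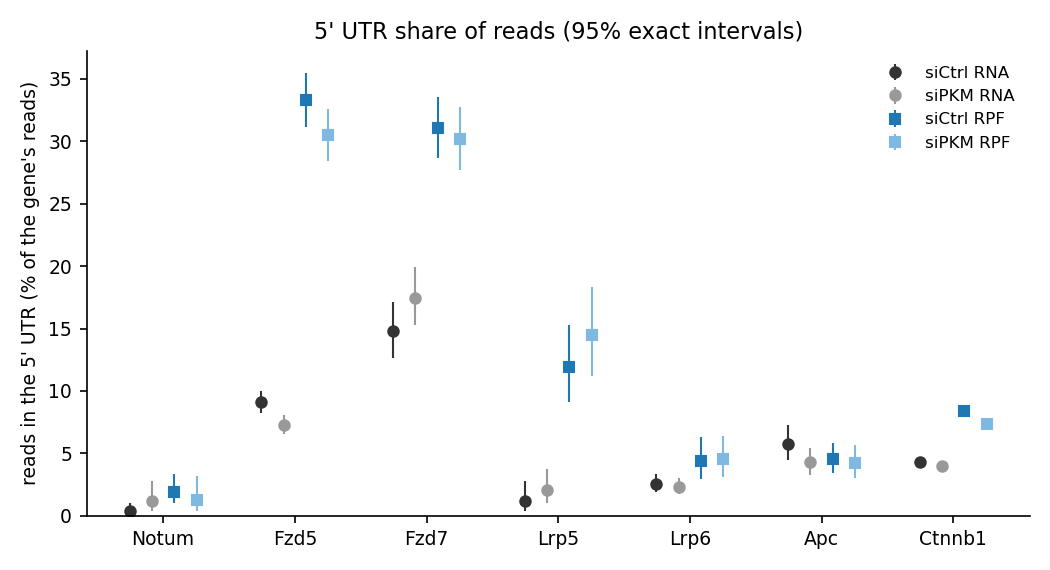
Share of a gene's reads that lay in its 5' UTR (y axis, percent), for each Wnt gene in the 4 libraries, with exact 95% intervals. Footprint shares of Fzd5 (33.3% and 30.5%) and Fzd7 (31.1% and 30.2%) lie above those of the other members, and above the RNA shares of the same genes.

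Other regions held few footprints of these genes. In siCtrl the first 15 codons held between 0.152% (Lrp6, 1 of 658 reads) and 3.67% (Fzd5, 68 reads) of a member's footprints, all under the median gene's 4.32%. Lrp6 had 1 such footprint in siPKM as well. Coding length, which bears on this share, was not used here. In the 3' UTR, Lrp5 had only 5 of 416 RNA reads in siCtrl, 1.20% (0.391 to 2.78), where the median gene had 26.2% and Fzd5 had 66.6%.

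The CLIP libraries asked which messages tagged PKM2 contacts, and 5 of the 7 Wnt genes were near the top of that scale. CLIP over RNA is the log2 of a gene's share of stops over its share of siCtrl RNA reads, both counted over the whole transcript, and its median over all genes was 0.07. Fzd7 had 376 and 368 stops in the 2 replicates and stood at 3.38 ± 0.01 (SD, n = 2), above 99.0% of genes. Apc had 389 and 385 stops and stood at 3.30 in each replicate, above 98.8%. Lrp6, with 460 and 499 stops, stood at 2.78 ± 0.09, Fzd5, with 930 and 911, at 2.68 ± 0.01, and Lrp5, with 82 and 70, at 2.38 ± 0.15. These 3 were above 97.3%, 96.7% and 94.8% of genes.

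Ctnnb1 and Notum were not in that range. Ctnnb1 had the second highest number of stops of the 7 genes, 785 and 819, but the highest RNA level, and stood at -0.19 ± 0.05, above 42.6% of genes. For Notum the replicates differed beyond counting error, with 95 stops in replicate 1 and 48 in replicate 2. They gave 1.48 and 0.52, a difference of 0.96 (0.45 to 1.5), and of 1848 genes with a like number of stops (within 1.5-fold) 0.379% differed as much. Its mean of 1.00 ± 0.68, above 72.8% of genes, is therefore uncertain. With footprints in the CDS in place of RNA reads as the denominator, Lrp5 was above 87.6% of genes and the other 4 high genes above 94.9% to 99.3%.

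The RNA level moved with this measure: across genes, which are not independent replicates, the Spearman correlation of CLIP over RNA with the control RNA level was -0.38, where the RNA level is also the denominator. Control RNA on the whole transcript was 1355 CPM for Ctnnb1 and between 21.7 CPM (Lrp5) and 213 CPM (Fzd5) for the other members, and its part in the order of the members was not tested. Notum, at 50.5 CPM, had less CLIP over RNA than Fzd7 at 53.0 CPM and Apc at 58.2 CPM. The Notum mean is uncertain, and its siCtrl RNA is one side of the ratio that chose it. Nothing about the part of the RNA level is read from these 3 genes. No CLIP library from cells without the tag was analysed here, so background crosslinking is part of every value. On the pathway list 37 of 44 genes were above the median of all genes, with Gpc4 at 4.00 ± 0.21 and Sfrp1 at 3.26 ± 0.07 among the highest and Ctbp1 at -0.66 ± 0.30 the lowest.

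**Figure D5:**
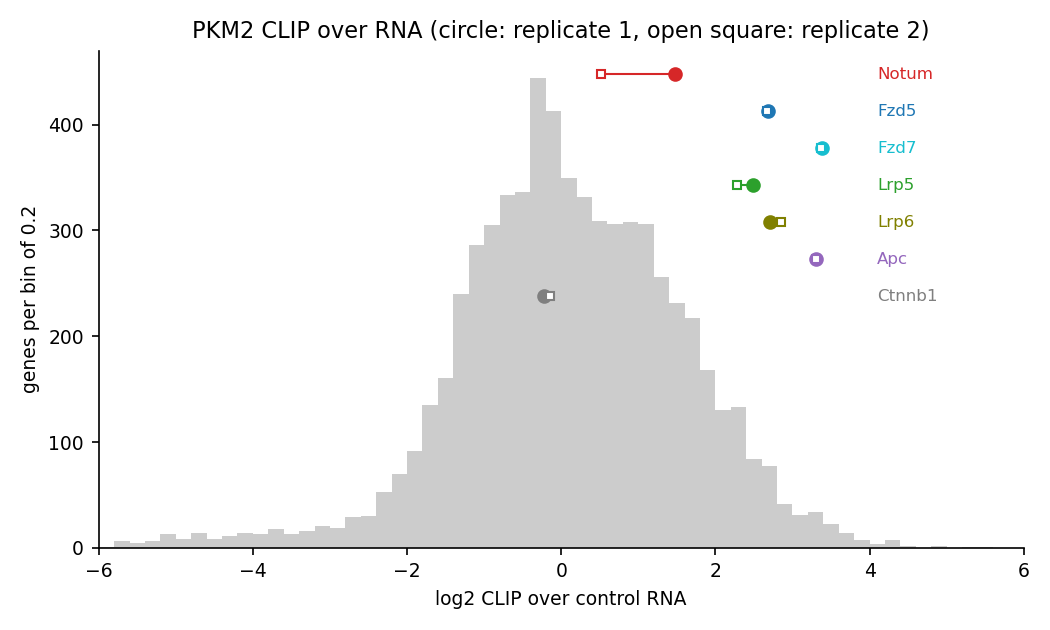
Log2 CLIP over control RNA of all genes (grey, number of genes per bin of 0.2; 44 genes lie below the plotted range) with the 7 Wnt genes drawn above by replicate (circle, replicate 1; open square, replicate 2). Heights of the symbols only separate the genes; Fzd7, Apc, Lrp6, Fzd5 and Lrp5 lie between 2.27 and 3.39 in both replicates, Ctnnb1 lies near the centre, and the Notum replicates lie apart at 1.48 and 0.52.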

How the data were processed

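A single deposited table held raw counts of reads per transcript region (5' UTR, first 15 codons, rest of the CDS, last 5 codons, 3' UTR) and raw counts of reverse transcription stops, per the file headers. It also held the authors' log2 RPM, log2 TE and log2 CLIP enrichment, of which the last 2 were used as alternatives. Reads were processed with cutadapt and Bowtie2 on mm9, per the submitters' processing notes; the sources used here do not name the counting tool or say how it treated strand and multiply aligned reads, so reads shared by related or overlapping genes cannot be told apart. No gene had fewer than 151 CDS reads in an RNA or RPF library, so a gene at or below 150 in any of them is not analysed here. For 3 repeated symbols the row with most RNA reads was kept, and names were matched to GRCm38.p6 by RefSeq accession for 6468 genes; no coordinates are given because the builds differ.

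Footprints were cut with RNase A and T1, and tagged PKM2 was pulled down with FLAG and HA beads, per the labels. Ratios used CDS reads outside the 15 first and 5 last codons, with 0.5 reads added, scaling by the library's CDS sum and centring on the median gene (shifts of 0.05 in RNA and 0.02 in RPF). Ratios of UTR reads took the same CDS sums and shifts. Intervals are 95%: exact conditional binomial for 2 counts, UTR ratios included, and normal for TE changes and for the 5' UTR to CDS ratio of footprints over RNA. They cover counting error only, since without molecular identifiers PCR copies cannot be told from separate molecules. The SD of the CLIP replicates may be technical, as nothing in the labels says that they came from separate cultures. The ratio code was tested on simulated data. TMM factors came from edgeR 4.0.16; other steps used Python 3.11.15 with scipy 1.17.1. Members, gene lists and the naming rule (all members, list genes past 1.5-fold, the highest and lowest of each role in RNA and TE, and the 5 genes nearest to Notum) were chosen with earlier results of these data known.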

Additional observations from a re-analysis of the deposited data

How the results depend on the processing

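With 1 library per siRNA group, the counting intervals are the only error available for the siPKM to siCtrl ratios, and genes at 150 CDS reads or fewer are outside the data. Over scaling (no centring, TMM), region, reads added, a floor on mean CDS reads (8 on the log2 scale) and the authors' TE, Notum stayed between -1.09 and -1.04 in RNA, -0.73 and -0.71 in RPF and 0.33 and 0.35 in TE, and Apc between -0.68 and -0.65 in TE. Without centring, 1 member (Apc) was 1.5-fold higher in RNA. With the floor, 5 genes of all were higher and 35 lower in TE, as fewer genes (5434) were counted. A lower line, 0.32 on the log2 scale, gave 808 genes higher and 553 lower in RNA, 723 and 568 in RPF and 248 and 409 in TE; on the pathway list, members included, it gave 12 higher and 3 lower in RNA, 7 and 3 in RPF and 2 and 6 in TE; and among the members 3 and 1 in RNA, 1 and 1 in RPF and 1 and 2 in TE. A 2-fold line gave 21 higher and 10 lower in RNA, 20 and 9 in RPF and 0 and 0 in TE; on the list 2 higher and 1 lower in RNA, 1 and 0 in RPF and 0 and 0 in TE; and among the members 0 higher and 1 lower in RNA, and 0 and 0 in RPF and in TE. CLIP over RNA without replicate 1 was 0.52 for Notum and without replicate 2 it was 1.48. No paired analysis was possible because only the CLIP libraries carry replicate numbers and they form 1 group.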

Other observations

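Some pathway genes outside the members, picked here after their values were seen, had extreme levels in the control libraries. Control TE, relative to the median gene, was 3.09 for Myc and 2.97 for Gpc4, above 99.8% and 99.7% of genes, and -2.71 for Macf1 and -1.78 for Ctbp1. The values of Myc and Gpc4 rest on 234 and 196 CDS reads in siCtrl RNA, near the lowest count of 151. The share of siCtrl footprints in the 5' UTR was 48.6% for the corepressor Tle1, 38.1% for the casein kinase 1 isoform Csnk1g3 and 30.4% for the kinase Gsk3b, beside 33.3% for Fzd5 and 31.1% for Fzd7.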
